A study of Mus musculus with 18 samples.

Results

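Ring1B knockout mouse embryonic stem cells (ESCs) were compared with wild-type ESCs by chromosome conformation capture carbon copy (5C) across the HoxD region. The knockout is represented by 3 libraries and the wild type by 2, out of 18 libraries in the series, and they were taken by their labels. All 4422 pairs of 1 forward and 1 reverse fragment were read, and 4251 of them, with midpoints at least 10 kb apart, entered the comparisons. The wild-type cells are WTF18 ESCs and the others are labelled Ring1B KO mouse ES cells. Neither group was treated, and both were grown with LIF and serum on mitomycin C-treated primary embryonic fibroblasts. These feeder cells were removed by reattachment before the ESCs were used for 5C. One knockout title carries no replicate number, and this library is called unnumbered here. The others are called replicate 1 and replicate 2, as in their titles. The study describes its further 5C data of the Polycomb mutants as from a biological replicate, while the labels do not say which of the libraries, 3 in the knockout, came from separate cultures. P-values therefore measure the spread between libraries, part of which may be technical. The matrices hold contacts and no RNA, and the Ring1B locus lies outside the region, so neither the cell type nor the knockout could be checked on these files.

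Ring1B is a core subunit of Polycomb repressive complex 1 (PRC1), an E3 ligase that ubiquitinates histone H2A. PRC2, which contains Eed and Ezh2, trimethylates histone H3 on lysine 27, and PRC1 forms that recognise this mark are recruited to the same sites. In ESCs both complexes cover the silent Hox clusters, and the comparison asks what happens to contact frequencies across HoxD when PRC1 lacks Ring1B. Folding itself was not measured here. By fluorescence in situ hybridization (FISH) the study saw HoxD unfolded in Ring1B knockout ESCs, although a weakened domain of contacts remained. It proposes that captured contacts need not mean closeness in space. HoxD carries the Hoxd homeobox genes, which pattern the body axis and limbs, with the homeobox gene Evx2 next to Hoxd13 at its 5′ end. Lnp and the GCR and Prox limb enhancers lie on the 5′ side, and Mtx2, which codes for a mitochondrial outer membrane protein, lies on the 3′ side.

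In 5C, crosslinked DNA is digested with EcoRI and religated, and a junction is copied where a forward primer on one fragment meets a reverse primer on another. The ESC design holds 66 fragments of one primer direction and 67 of the other over chr2:74241352-74907778 (mm9). The cluster was taken as the 23 fragments from the one over Evx2 to the one over Hoxd1, chr2:74483052-74604594, a span of 121.5 kb. It is bounded by 40 fragments in the 5′ flank and 70 in the 3′ flank. Hoxd10 has no fragment in the design. The 3′ ends on the plus strand of fragments on which the results below turn are shown here, each as the last bases up to and including the EcoRI site, which is in capitals. They were read from the mm9 genome and are not the primers, whose sequences were not used here.
Evx2 fragment mHoxD_67, chr2:74498285-74498314, between annotated genes: aatgagtattttatttaacaaataGAATTC
Hoxd13 fragment mHoxD_70, chr2:74511662-74511691, between annotated genes: gaggatgctccagtagaaaggagaGAATTC
Hoxd11 fragment mHoxD_75, chr2:74524291-74524320, in the Hoxd11 UTR and an intron of Gm20440: ctcagaaagtgattattttgtttaGAATTC
Hoxd8 fragment mHoxD_80, chr2:74544612-74544641, in the Hoxd8 coding sequence and an intron of 1700109F18Rik: ttccaaaccctagagttggaaaagGAATTC
Hoxd3 fragment mHoxD_89, chr2:74574580-74574609, in the Hoxd3 UTR: ctcagcctggttccgttctaccggGAATTC
Hoxd4 and Hoxd3 fragment mHoxD_85, chr2:74563641-74563670, in the Hoxd4 UTR and a Hoxd3 exon: gagggcccagaaaggtaaatgctcGAATTC
3′ flank fragment mHoxD_163, chr2:74849790-74849819, between annotated genes: cagaggaagacagctagcttcctaGAATTC
The last pair is shown because these fragments, 287 kb apart, form the most frequent contact beyond 10 kb.

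Contact frequencies are reads of a pair per 1000 reads of the run. Total reads were 653441 and 692267 in wild type and 1103714, 1708047 and 769601 in the unnumbered, replicate 1 and replicate 2 knockout libraries. At these totals 3 reads correspond to frequencies of 0.00176 to 0.00459, a limit that covers counting error only because the reads are PCR copies. Pairs without a read made up 59.2% and 59.8% of pairs in wild type, and 45.7%, 24.2% and 49.6% in knockout. Thinned to the lowest total, the knockout libraries would still be expected to hold reads in 2292, 3061 and 2089 pairs, against 1736 and 1709 in wild type. Pairs under 10 kb took 39.0% and 33.9% of the reads in wild type and 32.6%, 40.5% and 49.6% in knockout. Replicates differed far beyond sampling noise. Between the wild-type libraries, 862 pairs had no read in one and 100 or more in the other, and this number was 1121 to 1260 between knockout libraries. The unnumbered knockout library stood apart from the other knockout libraries inside the cluster, nearer to wild type, and values without it are given beside each result that changes. It was singled out by these same values, so larger cluster differences without it are no further support. The part of depth and of empty pairs in the results was not tested.

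Contacts inside the cluster were less frequent in Ring1B knockout than in wild-type ESCs. Their mean over 105 pairs was 1.27 and 1.47 reads per 1000 in wild type, against 1.07 in the unnumbered knockout library and 0.611 and 0.551 in replicates 1 and 2. All knockout libraries were below both wild-type libraries, the unnumbered one by the least. Means were 1.37 ± 0.144 (SD, n = 2) and 0.744 ± 0.284 (SD, n = 3), and the log2 difference on log2(frequency + 0.02) was −0.92 (SE 0.29, limma adjusted p = 0.0469). Without the unnumbered library it was −1.21 (adjusted p = 0.00129), and leaving out any one of the other 4 libraries ended the call (adjusted p = 0.0974 to 0.282). An exact permutation test of 2 against 3 libraries cannot give a two-sided p below 0.2. Of 16 region readouts tested, 3 passed, all lower in knockout (18.8%).

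Contacts between the 5′ part of the cluster, from Evx2 to Hoxd9, and the 3′ part, from Hoxd4 to Hoxd1, were also lower in knockout. Over 36 pairs the mean was 0.976 and 1.06 reads per 1000 in wild type and 0.783, 0.376 and 0.417 in the unnumbered, replicate 1 and replicate 2 libraries, a log2 difference of −0.999 (SE 0.30, adjusted p = 0.0469), and of −1.32 without the unnumbered library. Leaving out any one of the other 4 ended this call as well (adjusted p = 0.0974 to 0.282). Within the 5′ part, with Evx2, Hoxd13, Hoxd12, Hoxd11 and Hoxd9, the unnumbered library did not follow the others. Its mean there was 2.64, between wild-type values of 2.67 and 2.46, while replicates 1 and 2 held 1.30 and 1.06 (log2 difference −0.73, SE 0.44, adjusted p = 0.322). Within the 3′ part the values were 0.980 and 1.63 in wild type and 1.09, 0.695 and 0.696 in knockout (log2 difference −0.63, adjusted p = 0.121). Both parts passed when the unnumbered library was left out, at −1.12 (adjusted p = 0.0290) and −0.84 (adjusted p = 0.0185). Neither passed when replicate 1 or replicate 2 was left out instead. Between the windows of the Hoxd13 and Hoxd3 FISH probes, read by eye from the scheme of the region in the study, frequencies were 0.690 and 0.733 in wild type and 0.595, 0.288 and 0.237 in knockout. The log2 difference of −1.002 missed the threshold (SE 0.36, adjusted p = 0.0687) and passed without the unnumbered library (−1.38, adjusted p = 0.00129). It was −0.88 without replicate 1 (adjusted p = 0.234) and −0.75 without replicate 2 (adjusted p = 0.290).

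Outside the cluster no readout passed. Contacts inside the 5′ flank, with Lnp, GCR and Prox, had means of 0.126 and 0.130 in wild type and 0.153, 0.174 and 0.136 in knockout (log2 difference 0.23, adjusted p = 0.503). Inside the 3′ flank, with Mtx2, they were 0.118 and 0.130 against 0.139, 0.165 and 0.135 (0.21, adjusted p = 0.620). Knockout libraries lay above wild type in both flanks, but neither difference passed, and both turned slightly negative, −0.0098 and −0.034, when each library was scaled to its flanks, which fixes their mean. Taken over all distances, contacts that cross the cluster border overlapped between the groups. From the 5′ flank to the cluster they were 0.125 and 0.163 in wild type and 0.165, 0.0986 and 0.117 in knockout, and from the cluster to the 3′ flank 0.208 and 0.194 against 0.227, 0.190 and 0.160.

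**Figure D1:**
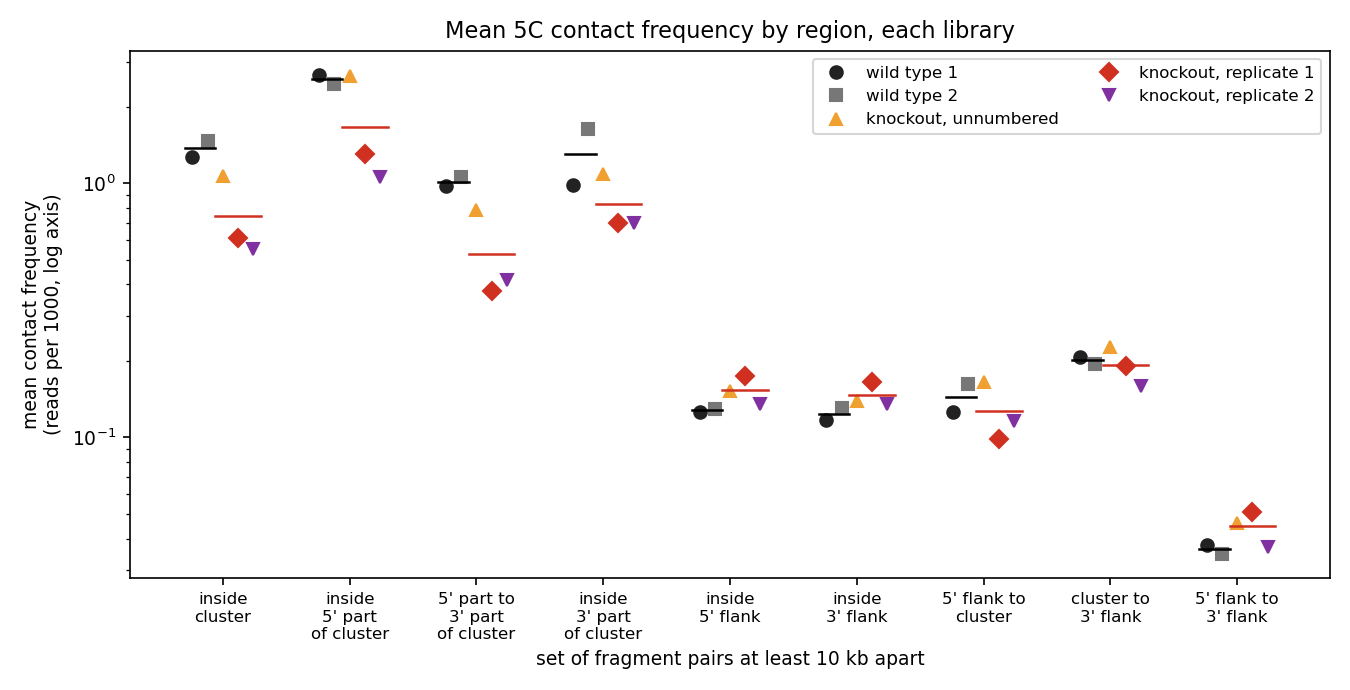
Mean contact frequency (reads per 1000, log axis) of sets of fragment pairs at least 10 kb apart, with 1 point per library and bars at the mean of 2 wild-type (black) and 3 knockout (red) libraries. Inside the cluster all knockout points lie below both wild-type points, from 1.07 down to 0.551, and in both flanks they lie above.

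By distance, all knockout libraries were below wild type in each of the 4 cluster classes, and 3 of these passed, while no class passed over all pairs. At 10 to 20 kb, cluster contacts had means of 1.91 and 2.45 in wild type and 1.78, 0.925 and 0.886 in the unnumbered, replicate 1 and replicate 2 libraries (log2 difference −0.92, SE 0.28, adjusted p = 0.0419). At 40 to 80 kb they had 1.12 and 1.31 against 0.852, 0.451 and 0.406, the largest difference of the distance classes (−1.14, SE 0.27, adjusted p = 0.0153). At 80 to 160 kb, where 10 cluster pairs remain, they had 1.35 and 1.13 against 1.004, 0.401 and 0.524 (−1.03, SE 0.31, adjusted p = 0.0419). In each of these classes replicates 1 and 2 were near each other and the unnumbered library was the highest of the knockout. The class from 20 to 40 kb did not pass (−0.68, SE 0.30, adjusted p = 0.219), with 1.12 and 1.29 against 1.01, 0.708 and 0.569. Thus 3 of 34 distance classes passed (8.82%), all inside the cluster and lower in knockout. Without the unnumbered library all 4 cluster classes passed, at −0.90 to −1.46, and contacts from the 5′ flank to the cluster beyond 320 kb were higher (0.77, adjusted p = 0.0302). With all libraries, these 13 pairs had 0.0530 and 0.0207 in wild type against 0.0808, 0.0742 and 0.0716 in knockout. That difference of 0.81 did not pass (SE 0.27, adjusted p = 0.0686). Leaving out wild-type library 2, replicate 1 or replicate 2 ended every call in the cluster classes, with adjusted p = 0.112 to 0.117 at 40 to 80 kb. Without wild-type library 1 only the class from 40 to 80 kb kept its call in the cluster (−1.25, adjusted p = 0.0229). Over all pairs the difference in the 6 classes ran from −0.25 at 10 to 20 kb to 0.10 beyond 320 kb. Pairs under 10 kb, shown apart and not tested, had cluster means of 2.18 and 2.32 in wild type and 2.25, 1.90 and 2.09 in knockout, so the groups overlapped there.

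To remove distance and library scaling, the cluster mean was divided by the mean of pairs inside either flank at matched distance. This domain enrichment, averaged over 5 classes from 10 to 110 kb, was a log2 ratio of 3.11 and 3.21 in wild type and 2.57, 1.35 and 1.63 in the unnumbered, replicate 1 and replicate 2 libraries. The difference was −1.31 on the log2 scale (SE 0.37, limma adjusted p = 0.0469). Without the unnumbered library it was −1.67 (adjusted p = 0.000940), and leaving out any one of the other 4 ended the call here too, at −1.06 to −1.36. Some enrichment remained in every knockout library, with a mean of 1.85 (SE 0.23, adjusted p = 4.52e-06 against 0), compared with 3.16 in wild type (SE 0.28, adjusted p = 2.78e-07 against 0). When each value was divided by the contacts of its fragments beyond 120 kb, the knockout ratio was −0.059 (adjusted p = 0.746), and the difference from wild type was −0.75 (adjusted p = 0.324). By these values the wild-type ratio after this division was also far below 3.16, so the drop was not particular to knockout. In wild type the enrichment was 2.54 and 2.79 at 10 to 20 kb and 3.69 and 3.52 at 80 to 110 kb. In replicate 1 it lay between 1.18 and 1.63 over all 5 classes, while between the first class and the last it was 1.13 and 2.75 in replicate 2 and 2.42 and 3.17 in the unnumbered library. Whether the groups differ in this course with distance was not tested.

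**Figure D2:**
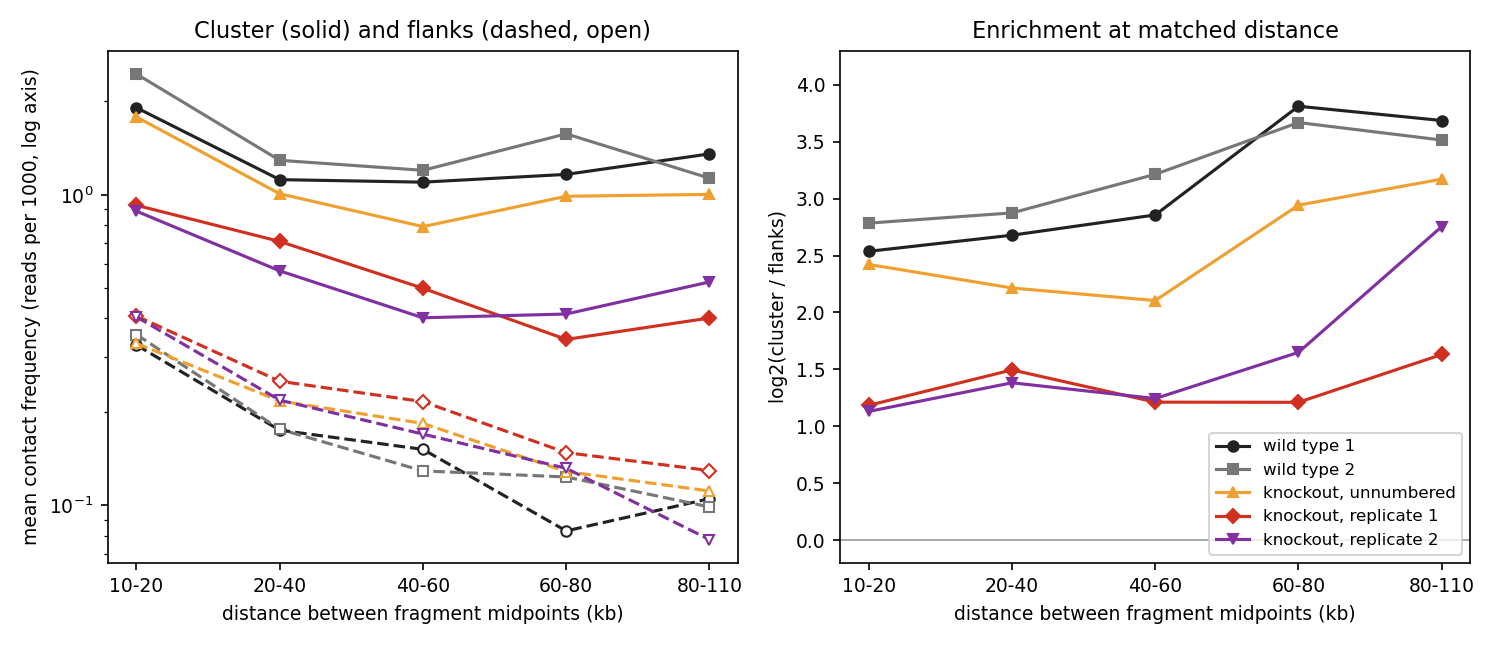
Mean contact frequency (reads per 1000, log axis, left) inside the cluster (solid) and inside the flanks (dashed) and their log2 ratio (right) by distance between midpoints, 1 line per library. Knockout replicates 1 and 2 run below wild type inside the cluster at every distance and the unnumbered knockout library lies between, while all flank lines lie lower than all cluster lines of the same distance.

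Fragment by fragment, contacts of the cluster with itself were lower in knockout at nearly all anchors, though no anchor passed on its own. With cluster partners, 22 of 23 cluster fragments had a lower mean in knockout, and in 15 all knockout libraries were below both wild-type libraries, against 8.02% of all 399 fragment and partner combinations tested. The median log2 difference of the 23 was −0.93. It was −0.31 in the unnumbered library, −1.15 in replicate 1 and −1.38 in replicate 2, each against the wild-type mean, and 16, 21 and 22 fragments were below both wild-type libraries. Cluster fragments share pairs with each other and are not independent. No combination passed in limma (0 of 399, 0%), with 42 at an unadjusted p under 0.05, of which 15 were lower. With the 5′ flank as partner the median of the 23 was −0.02 and with the 3′ flank 0.06, beside 0.14 over all combinations of fragments and partners.

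Hoxd11 and Evx2 made the most frequent contacts with the rest of the cluster in wild type. The Hoxd11 fragment (mHoxD_75, chr2:74516252-74524317) averaged 3.62 and 3.85 reads per 1000 over its cluster partners in wild type and 3.29, 1.25 and 1.26 in the unnumbered, replicate 1 and replicate 2 libraries. Replicates 1 and 2 lay far under the others and the unnumbered library just under wild type, for a log2 difference of −1.10 (SE 0.45, adjusted p = 0.404). At the Evx2 fragment (mHoxD_67, chr2:74483052-74498311) the values were 2.98 and 3.12 against 2.31, 1.15 and 0.932 (−1.16, SE 0.41, adjusted p = 0.305). Hoxd13, the most 5′ Hoxd gene and needed for digits, had 2.31 and 1.98 against 1.69, 0.924 and 0.982 (−0.88, adjusted p = 0.430). All of these groups were separate, with the unnumbered library nearest to wild type each time.

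The largest difference was at Hoxd8 (mHoxD_80, chr2:74542115-74544638). Its contacts with the cluster were 1.38 and 1.58 in wild type and 0.863, 0.315 and 0.309 in knockout (log2 difference −1.70, SE 0.44, adjusted p = 0.305). Here the unnumbered library was also well below wild type, and without it the difference passed (−2.17, adjusted p = 0.0214). The difference did not pass without replicate 1 or without replicate 2. On the next fragment (mHoxD_81), which holds the 3′ end of Hoxd8, the groups overlapped, with 1.24 and 0.715 against 0.789, 0.638 and 0.365 (−0.70). Among the 9 fragments over the Hoxd3 gene model, some of which also hold Hoxd4, 8 had a lower mean and 7 had all knockout libraries below wild type. At mHoxD_89 the values were 1.62 and 2.45 against 1.196, 0.882 and 0.550 (−1.24, SE 0.39, adjusted p = 0.305). The fragment over the Hoxd4 end (mHoxD_88) had 1.66 and 1.77 against 1.21, 0.741 and 0.481 (−1.16, adjusted p = 0.305), and the small mHoxD_83 had 0.619 and 1.42 against 0.582, 0.266 and 0.398 (−1.21, adjusted p = 0.401). The exception was mHoxD_87 in Hoxd4, with 0.106 and 0.301 in wild type and 0.245, 0.0650 and 0.410 in knockout.

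Not all genes followed to the same extent. The 3 fragments over Hoxd12 overlapped between groups, with differences of −0.80 to −0.32 and, on average over the fragments, 0.418 and 0.415 reads per 1000 in wild type against 0.387, 0.316 and 0.209. Hoxd9 had 0.970 and 1.09 against 0.987, 0.665 and 0.609 (−0.47, adjusted p = 0.656), so the unnumbered library was within the wild-type range. Outside the cluster the Hoxd9 fragment had higher values in every knockout library, at 0.0449 and 0.0257 against 0.0664, 0.0758 and 0.0842 with the 5′ flank and 0.0906 and 0.0887 against 0.172, 0.218 and 0.151 with the 3′ flank, without passing (adjusted p = 0.430 and 0.404). At the 3′ end, Hoxd1 had 0.986 and 0.875 with the cluster against 0.813, 0.374 and 0.692 (−0.62, adjusted p = 0.556). The fragment between Hoxd3 and Hoxd1 (mHoxD_93) differed least, with 0.405 and 0.497 against 0.477, 0.449 and 0.372 (−0.06).

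**Figure D3:**
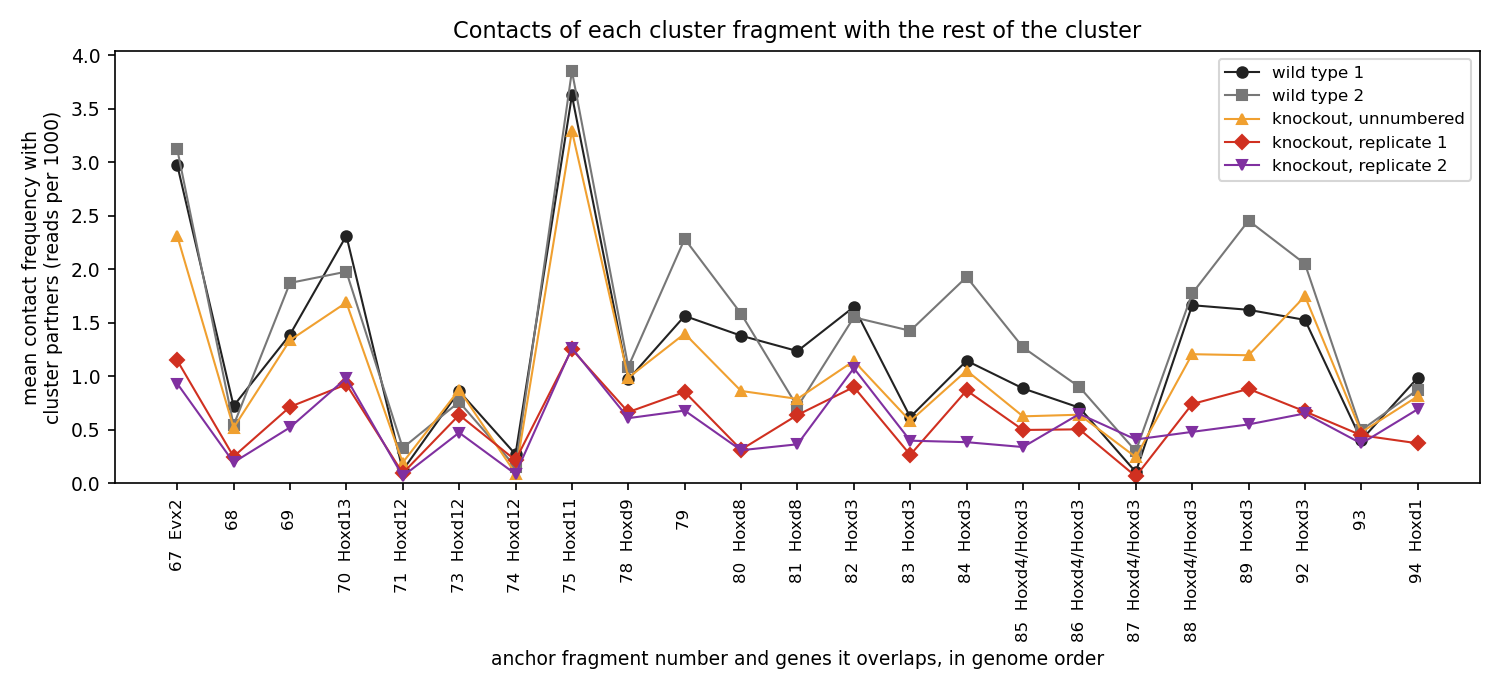
Mean contact frequency (reads per 1000) of each of the 23 cluster fragments with cluster partners at least 10 kb away, in genome order from Evx2 to Hoxd1, 1 line per library. Hoxd11 and Evx2 are highest in wild type, and knockout replicates 1 and 2 lie near 1 there while the unnumbered knockout library stays above 2.

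Over all partners, no anchor fragment passed in limma (0%), while 22 had an unadjusted p under 0.05, of which 16 were higher and 6 lower in knockout. Limma-voom on recovered reads also called none. The 6 lower ones were all cluster fragments. Groups were separate with knockout below at 5 cluster, 2 5′ flank and 3 3′ flank fragments, and with knockout above at 0, 13 and 19, beside 7.52% and 24.1% of all fragments. Among fragments with separate groups, the largest negative differences were at Hoxd8 (mHoxD_80), with 0.257 and 0.303 against 0.223, 0.131 and 0.0982 (−0.88, SE 0.29, adjusted p = 0.229), and at Evx2, with 0.706 and 0.701 against 0.598, 0.363 and 0.261 (−0.84, adjusted p = 0.229). Next came mHoxD_85 over Hoxd4 and Hoxd3 (−0.83), mHoxD_89 in Hoxd3 (−0.82) and mHoxD_163 (−0.74). With values capped at the 99th percentile of a library, mHoxD_85 was at −0.34 and mHoxD_163 at 0.00350. The Hoxd11 fragment (mHoxD_75), at −0.76, had overlapping groups, with the unnumbered library above wild type. Without the unnumbered library 4 fragments fell, Hoxd11 (−1.21), Hoxd8 (−1.17), Evx2 (−1.14) and mHoxD_89 (−1.05), and 1 rose, mHoxD_101 in the 3′ flank (1.38, adjusted p = 0.0141). No anchor passed without replicate 1 or without replicate 2.

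The 5 largest positive differences with separate groups were at fragments outside the cluster. The one next to Evx2 (mHoxD_66, chr2:74482148-74483051) had 0.0603 and 0.0338 reads per 1000 in wild type and 0.0880, 0.101 and 0.0865 in knockout (0.76, SE 0.28, adjusted p = 0.229). It was followed by mHoxD_159 (0.73), mHoxD_150 (0.72) and mHoxD_176 (0.69) in the 3′ flank and mHoxD_8 (0.71) within the GCR window. Over Lnp 5 of 8 fragments were higher, with differences of −0.12 to 0.66, and over Mtx2 10 of 11, from −0.04 to 0.65. GCR and Prox, windows read by eye, ran from −0.07 to 0.71 and from −0.47 to 0.67 over 8 fragments each. The median over all anchors was 0.16 (−0.08 when libraries were scaled to their flanks), and it was −0.42 in the cluster, 0.22 in the 5′ flank and 0.18 in the 3′ flank.

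In 20-kb bins, the window size of the study's heat maps, 2 of 557 bin pairs passed (0.359%), both higher in knockout and both without a read in wild type. One joined a bin at lower coordinates than Lnp to one in Lnp (chr2:74321352-74341351 and chr2:74381352-74401351) through a single fragment pair, with 0 and 0 in wild type and 0.323, 0.193 and 0.431 in knockout (adjusted p = 0.00179). The other joined a bin in the 5′ flank near Evx2 to one at Hoxd3 and Hoxd1 (chr2:74461352-74481351 and chr2:74581352-74601351) over 4 fragment pairs, with 0 and 0 against 0.0917, 0.0947 and 0.0734 (adjusted p = 0.0320). Neither was called by limma-voom on recovered reads, which called 0 bin pairs (40 at an unadjusted p under 0.05). The second lost its call when any 1 of the 5 libraries was left out. The largest negative difference with separate groups was within the bin over Hoxd8, Hoxd4 and Hoxd3, with 1.002 and 1.78 against 0.289, 0.345 and 0 (−3.37, adjusted p = 0.366, 1 fragment pair).

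**Figure D4:**
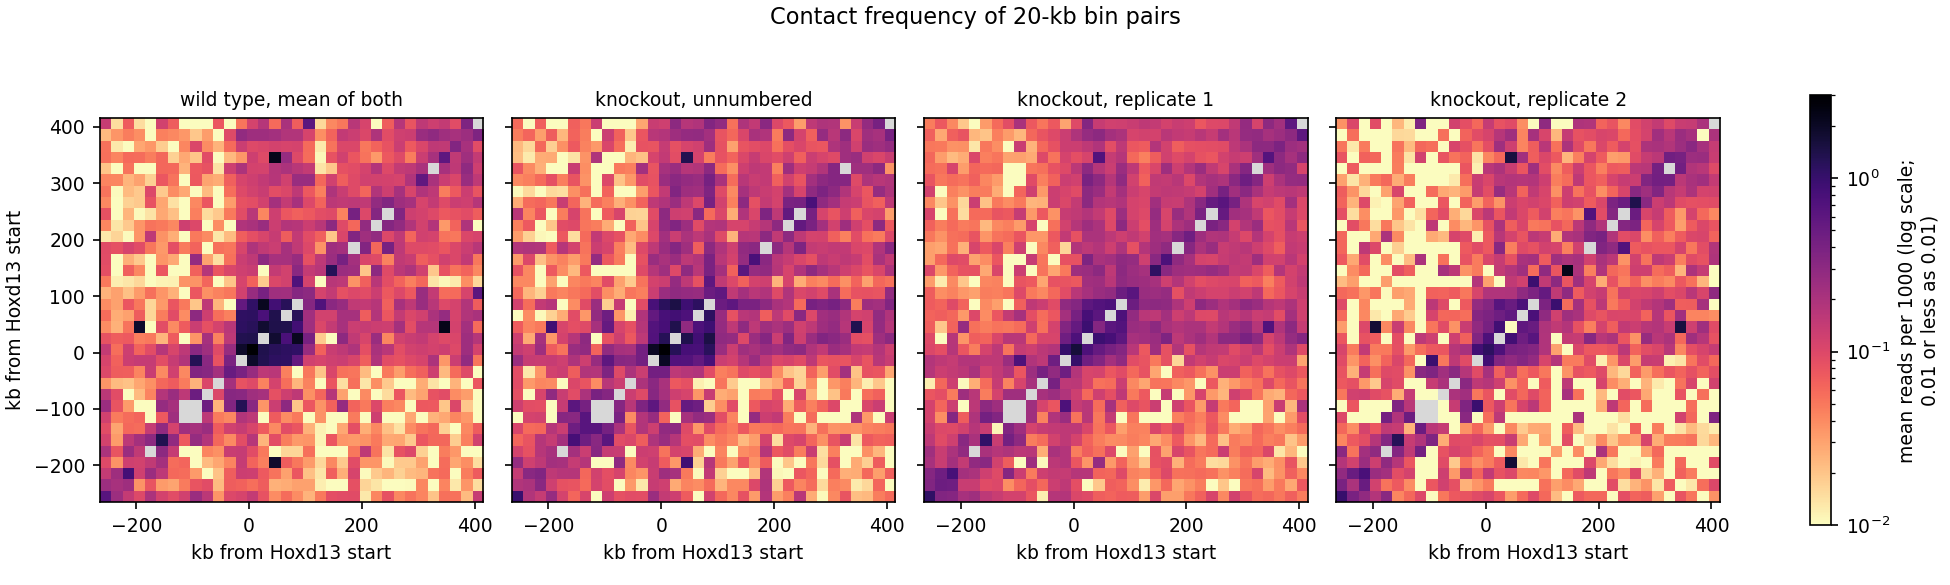
Mean contact frequency (reads per 1000, log colour scale, values outside 0.01 to 3 drawn at these limits) of 20-kb bin pairs, by distance in kb from the Hoxd13 start, for the mean of both wild-type libraries and each knockout library. The dark square over the cluster is paler in replicates 1 and 2 than in wild type, with the unnumbered knockout library between, and grey marks bins without a pair.

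Of single pairs, 34 of 105 inside the cluster had all knockout libraries below both wild-type libraries and 5 had all above, beside 5.36% below and 9.08% above over all 4251 pairs. In the unnumbered library 46 of the 105 were below both wild-type libraries, in replicate 1 62 and in replicate 2 69. Over all 4251 pairs these counts were 471, 465 and 590. The median log2 difference of cluster pairs from wild type was −0.25, −0.89 and −0.96 in the unnumbered, replicate 1 and replicate 2 libraries. Across the 105 pairs, which share fragments, Pearson's r of log2 values was 0.70 between the wild-type libraries and 0.65 and 0.70 between them and the unnumbered library. It was 0.70 and 0.65 for replicate 1 and 0.50 and 0.43 for replicate 2. By this measure replicate 1 was as close to wild type as the unnumbered library.

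The pairs with the highest mean in undifferentiated OS25 ESCs, another line of the series, were followed as contacts chosen without the libraries compared here. All 10 had lower means in knockout, 6 of them with separate groups, and none passed on its own (adjusted p = 0.750 to 0.945). Hoxd11 with the fragment over the Hoxd4 end (mHoxD_88) had 3.82 and 4.07 in wild type and 2.66, 0.533 and 0.364 in knockout. Evx2 with mHoxD_83, in an intron of the Hoxd3 gene model 5′ of Hoxd4, had 2.98 and 5.43 against 1.63, 0.436 and 0.890. These long contacts across the cluster, 49.1 and 62.0 kb, differed most, by −2.26 (SE 1.21) and −2.20 (SE 1.23). Evx2 with Hoxd13 had 7.97 and 6.04 against 5.32, 2.75 and 3.37. Hoxd11 with mHoxD_82, at the 5′ end of the Hoxd3 gene model, had 3.98 and 3.79 against 2.55, 2.07 and 2.10. Evx2 with Hoxd11 differed from these, since the unnumbered library was above wild type, with 5.09 and 5.66 against 7.09, 2.85 and 1.47.

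Long-range contacts with fragments outside the cluster were more uneven. Fragment mHoxD_85 over Hoxd4 and Hoxd3 met mHoxD_163 in the 3′ flank at 40.4 and 38.5 reads per 1000 in wild type and 21.9, 10.8 and 26.3 in knockout. This contact was the most frequent one beyond 10 kb in each of the 5 libraries. When values were capped at the 99th percentile of a library, the difference of mHoxD_163 over all partners went from −0.74 to 0.00350. The same cap took that of mHoxD_85 from −0.83 to −0.34. Fragment mHoxD_22 in the 5′ flank met mHoxD_82 in Hoxd3 at 9.23 and 33.9 in wild type and 9.82, 2.33 and 20.0 in knockout, a spread within each group larger than the gap between them. In the 3′ flank mHoxD_127 in Mtx2 met mHoxD_139 at 2.05 and 2.51 against 1.66, 0.634 and 3.72, with replicate 2 above wild type.

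**Figure D5:**
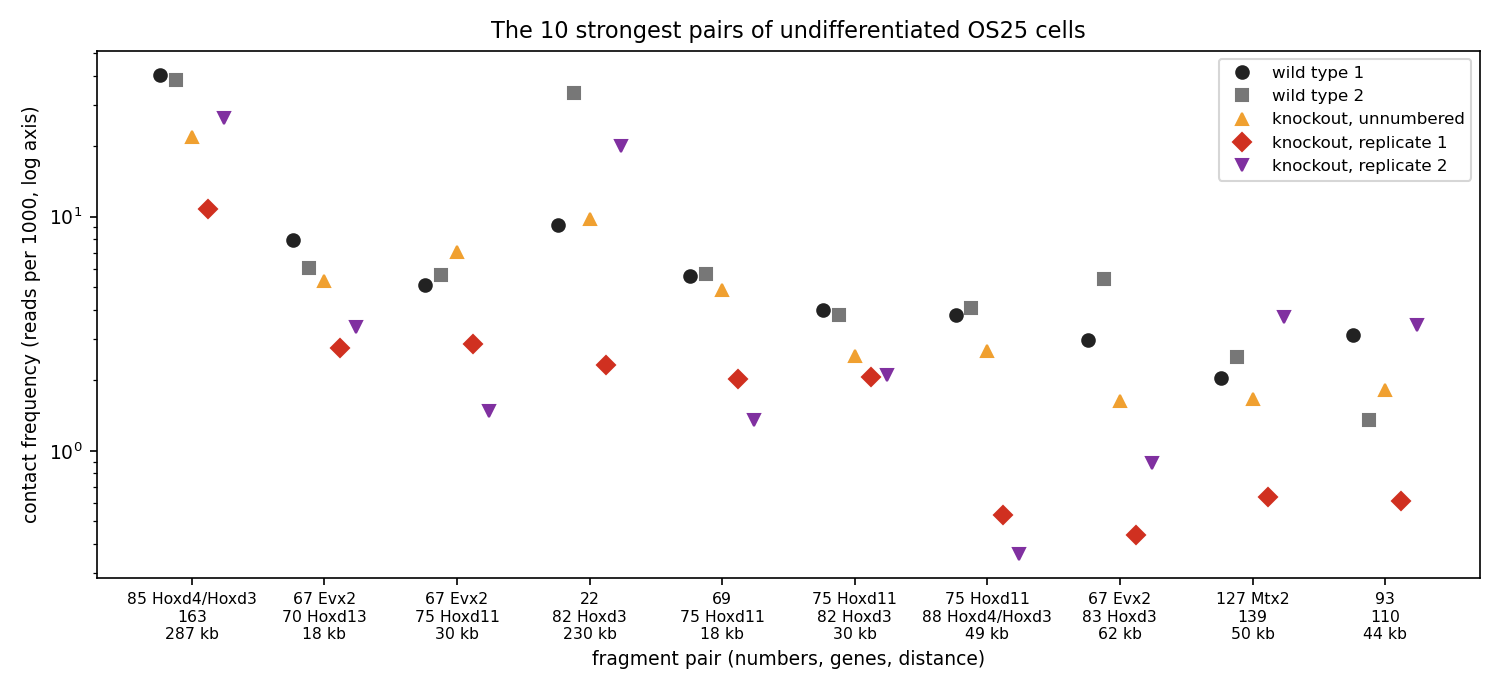
Contact frequency (reads per 1000, log axis) of the 10 pairs with the highest mean in undifferentiated OS25 ESCs, with fragment numbers, genes and distance, 1 point per library. For Hoxd11 with the Hoxd4 end knockout replicates 1 and 2 lie at 0.533 and 0.364, against wild-type values of 3.82 and 4.07.

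No single pair passed over the 3484 tested (0%), with 244 at an unadjusted p under 0.05, of which 172 were higher and 72 lower in knockout. This count depended on the model. Limma-voom on recovered reads called 136 pairs, 103 higher and 33 lower, and limma without the filter on low values called 24, 20 of them higher. The largest positive differences with separate groups had no read in wild type, as for Hoxd11 with mHoxD_176 in the 3′ flank (0 and 0 reads against 763, 819 and 275) and mHoxD_85 with mHoxD_115 (0 and 0 against 554, 800 and 409). Among the negative ones, mHoxD_68 next to Evx2 met the Hoxd8 fragment at 1.96 and 0.965 reads per 1000 in wild type and 0, 0.186 and 0.227 in knockout. All of these had an adjusted p of 0.543.

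Against the groups most like it, the Ring1B knockout lay between Eed knockout ESCs, which lack a PRC2 subunit, and Ring1B knockout ESCs carrying wild-type Ring1B (labelled Ring1BGWT). The cluster mean was 0.365 and 0.468 in the Eed knockout and 1.41 and 1.52 in Ring1BGWT, and their domain enrichment was 1.03 and 0.903 and 3.23 and 3.08. Ring1B knockout exceeded Eed knockout by 0.76 in the log2 cluster mean (SE 0.29, adjusted p = 0.0331) and by 0.88 in domain enrichment (SE 0.37, adjusted p = 0.0334). Both differences rested on the unnumbered library, since without it they were 0.47 and 0.52 (adjusted p = 0.108 for both). Ring1BGWT exceeded the Ring1B knockout by 1.02 and 1.30 (adjusted p = 0.00980 for both). These calls held when any 1 of the Ring1B knockout libraries was left out (adjusted p = 0.000312 to 0.0288). Wild-type libraries do not enter these differences, and the Ring1BGWT and Eed knockout libraries were not left out in turn. The same knockout libraries enter both comparisons and that with wild type.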

How the data were processed

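The deposited matrices hold signal values, made by the authors from Ion Torrent reads through a 5C pipeline on Galaxy, as reads of a pair per 1000 reads of the sequencing run. Coordinates are mm9, per the submitters' processing notes, and no aligner is named in these sources. All values of the 5 libraries were whole multiples of 1 step within 1e-5 reads, and total reads were taken from that step (653441 to 1708047). Primer direction was read from which fragments share contacts. Fragments were placed on gene annotation of the same build, and 132 start and all end in an EcoRI site. Means over pairs include zeros. Groups were compared with limma 3.58.1 (R 4.3.3), two-sided, on log2(mean + 0.02), the domain enrichment without pseudocount, in 1 fit of 14 libraries of the ESC design in 7 groups that share an estimate of spread. The groups were wild type, Ring1B knockout, Eed knockout, Ring1BGWT, Ring1BG53 (1 library), undifferentiated OS25 and OS25 cells differentiated with retinoic acid. Benjamini-Hochberg adjustment was made within each family, with a threshold of 0.05. Bins and pairs needed a mean above 0.02 over the 14 libraries. Readouts share pairs, so p-values may be too small. Named were fragments over genes and enhancers, up to 5 features each way with the largest difference and separate groups, and the 10 strongest OS25 pairs. Members and lists were chosen with earlier results of these data known. Alternatives covered scaling, pseudocount, distance, compartments, filters, model and libraries. Only the bin and pair fits were tested on simulated data, and the region, distance and anchor fits were not. The simulated noise was normal and independent, without the empty and shared pairs of the real data. Python 3.11.15, numpy 2.4.6, pandas 2.3.3, scipy 1.17.1 and matplotlib 3.10.9 were used. The 4 limb libraries, of another design, were not used, and FISH and ChIP data were not analysed here.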

Additional observations from a re-analysis of the deposited data

How the results depend on the processing

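The mean inside the cluster and the domain enrichment stayed lower in knockout under every alternative, but the calls did not all hold. The log2 difference of the cluster mean was −0.83 (adjusted p = 0.0558) with libraries scaled to their sum beyond 10 kb, −0.85 (0.0527) with a pseudocount of 0.1, −0.62 (0.0953) with no minimum distance, −0.92 (0.0633) with only wild-type and knockout libraries, −0.87 (0.0518) with compartments by midpoint without Evx2, and −0.54 (0.661) after division by primer efficiency. The domain enrichment was −1.20 (0.0518) by midpoint and −0.75 (0.324) by primer efficiency, where the enrichment left in knockout turned to −0.059 (0.746) and Ring1BGWT exceeded knockout in the cluster by 0.64 (0.0542). Wild-type enrichment was also much lower by primer efficiency. Leaving out one library gave −1.21 to −0.74 for the cluster, −1.67 to −1.06 for the enrichment, 0.47 to 0.94 and 0.52 to 1.14 for knockout over Eed knockout.

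Of region readouts, 3 as reported, 0 were called with sum scaling, a pseudocount of 0.1, midpoints or primer efficiency, 1 with only both groups and 5 with flank scaling. Of distance classes, also 3, 0 were called with either scaling, midpoints or primer efficiency, and 1 with a pseudocount of 0.005 or 0.1, no minimum distance, only both groups or values capped at the 99th percentile. Bin pairs called, 2 as reported, were 1 with a pseudocount of 0.1 and 0 with only both groups or limma-voom. Fragment pairs called, 0 as reported, were 24 without a filter and 136 with limma-voom. Leaving out one library gave 0 to 6 region readouts, 0 to 5 distance classes, 0 to 5 anchors, 0 to 1 anchor and compartment combinations and 1 to 2 bin pairs. Flank scaling moved the median over anchors from 0.16 to −0.08 and turned the 5′ and 3′ flank means to −0.0098 and −0.034. Primer efficiency turned mHoxD_159 to −0.10, mHoxD_176 to −0.074, mHoxD_85 to 0.51 and mHoxD_163 to 0.61. It also brought Evx2 (mHoxD_67) to −0.026, mHoxD_89 to −0.080, mHoxD_66 to 0.038, Hoxd8 (mHoxD_80) to −0.30, mHoxD_8 to 0.25 and mHoxD_150 to 0.36. This setting divides each value by the contacts of its fragments beyond 120 kb in the same library. Those contacts are among the partners averaged for an anchor, so anchor differences shrink by construction. For mHoxD_85 and mHoxD_163 the divisor holds their own contact at 287 kb. These anchor values are therefore no independent check. The difference between the Hoxd13 and Hoxd3 windows was −0.25 there. Capping turned mHoxD_163 to 0.00350 and brought mHoxD_85 to −0.34. The causes were not tested.

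The planned edgeR test was not run. Limma-voom on the recovered reads took its place and was chosen after seeing the data. No paired analysis was possible because the wild-type titles carry no replicate number shared with the knockout. By counting error alone, a pair without a read is bounded at 3 reads, 0.00176 to 0.00459 per 1000. Replicates went far beyond this bound, with 862 to 1260 pairs at 0 reads in one library and 100 or more in another of its group. At the lowest total, reads would be expected in 2292 of 2307, 3061 of 3221 and 2089 of 2141 pairs of the knockout libraries.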
